A study of Mus musculus with 2 samples.

Results

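The 51 genes described here encode chromatin regulators: Polycomb subunits, MLL and other histone methyltransferases, histone demethylases, CHD remodelers, subunits of the BAF remodeling complex, histone acetyltransferases and deacetylases, and enzymes of DNA methylation. They were taken by symbol from a given list, and each symbol matched 1 of the 55536 genes of the deposited gene tables. All 51 are among the 22028 protein-coding genes. A list drawn up for this description names 27 of these members as linked to a human syndrome with facial features. It was not checked for completeness. Levels were measured by polyA plus RNA-seq in the facial prominence, the swellings that form the face, dissected from B6NCrl mice at embryonic day 12.5. There was 1 group of 2 libraries from separate pools of mixed sex, replicate 1 from 120 embryos and replicate 2 from 88. Each library started from 10 ng of RNA, primed with oligo-dT, and carried ERCC spike-ins. With 1 tissue, 1 age and no treatment, no conditions could be compared, and an exact sign-flip test over n = 2 cannot go below p = 0.5, so no p-values are given.

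Chromatin regulators write, read or erase marks on histones and DNA, or move nucleosomes with energy from ATP. Polycomb complexes keep developmental genes silent, MLL proteins and acetyltransferases act at active promoters and enhancers, and BAF and CHD enzymes remodel nucleosomes. Heterozygous loss of many of these genes causes a human syndrome with a recognizable face, and cranial neural crest cells, which build most facial mesenchyme, are among the cells affected.

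Expected counts, the deposited estimates of reads per gene, summed to 28705073 in replicate 1 and 41092194 in replicate 2, with 2.85% and 3.10% in spike-ins. Counts of the members ran from 100 to 17530 per library. Of the cell type lists checked, all 10 facial mesenchyme markers were detected, with a summed TPM of 1127 and 1015 in replicates 1 and 2. TPM is a length-corrected share of all transcripts, and detected means a TPM of at least 1 in both libraries. All listed markers of epithelium, neurons, skeletal muscle, red cells, endothelium, macrophages and eye were detected too, and 0 of 4 trunk Hox genes. Summed TPM was 154 and 363 for lens and eye markers, 372 and 278 for neurons, 295 and 357 for skeletal muscle and 9705 and 8740.26 for red cells. In this bulk tissue, fewer cells of a type and less RNA per cell cannot be told apart.

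All 51 members were detected, where 60.7% of all protein-coding genes were. Their median level was 35.96 ± 0.368 TPM (SD over libraries, n = 2), being 36.2 in replicate 1 and 35.7 in replicate 2. The median of the 13382 detected protein-coding genes was 21.5 TPM. A mean of at least 10 TPM was reached by 48 members and by 68.6% of detected protein-coding genes, and a mean of at least 100 by 10 members and by 12.2%. A mean of at least 20 TPM was reached by 38 members and by 52.0% of detected protein-coding genes. Most members thus lay in the upper part of the detected genes. Together the members took 3098 TPM in replicate 1 and 3102 in replicate 2. The highest were Hdac2, Smarcb1, Hdac1, Dnmt3a and Smarcc1, and the lowest were Cbx7, Cbx8, Kmt2b and Kmt2d. When the members were ranked by mean TPM, the values of 30 of 50 neighbouring pairs did not overlap between libraries, and those of 20 pairs did. The same share was not worked out for other genes.

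**Figure D1:**
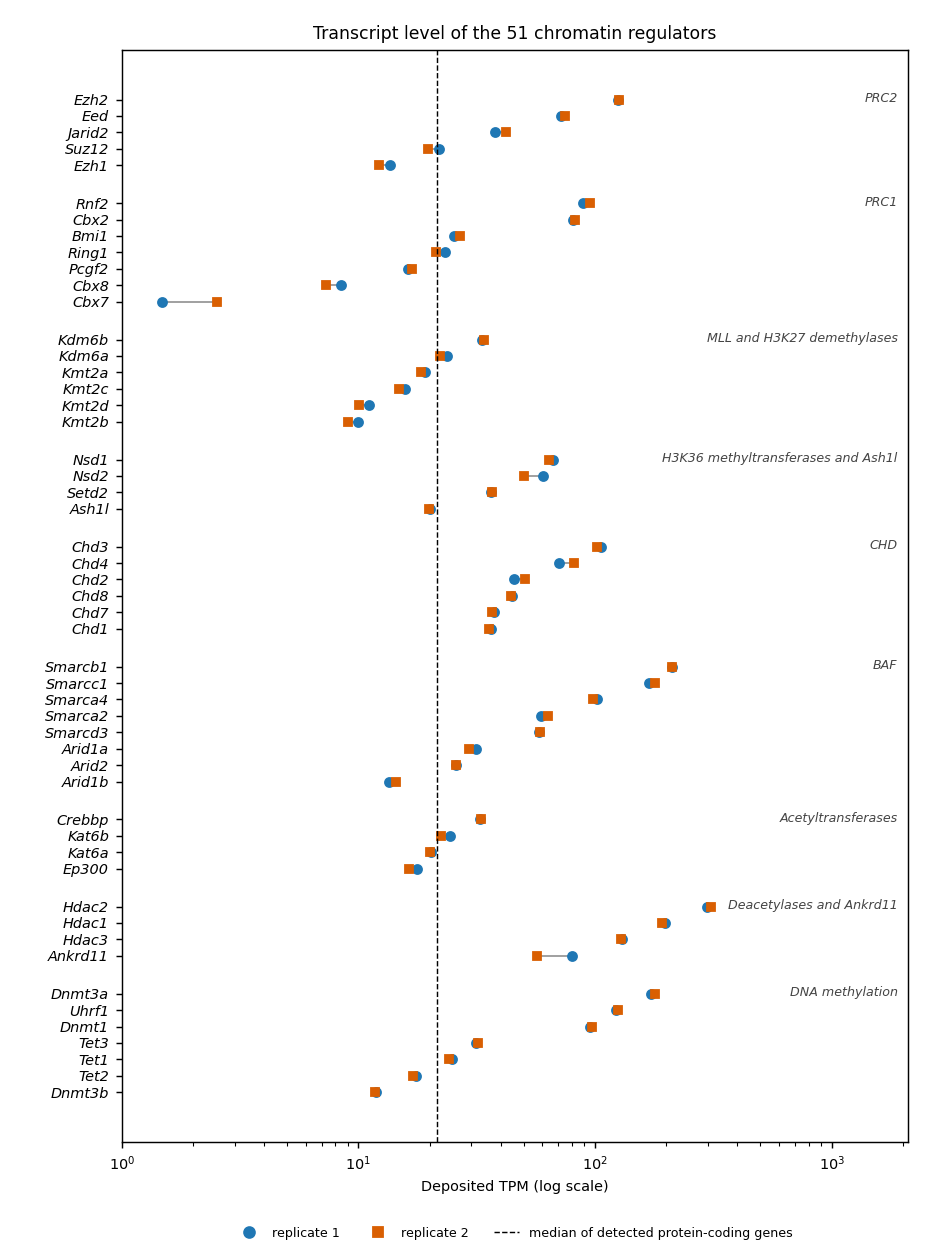
Deposited TPM on a log scale for each of the 51 members, grouped by complex or activity, with circles for replicate 1 and squares for replicate 2. The dashed line is the median of detected protein-coding genes, 21.5 TPM. Deacetylases sit at the right and most MLL members at or left of the line.

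Medians by group ran from 17.0 ± 0.569 TPM in the MLL proteins with the H3K27 demethylases (6 genes) to 162 ± 2.35 in the deacetylases with Ankrd11 (4 genes). Between these lay the acetyltransferases at 21.8 ± 0.845 (4 genes), PRC1 at 22.3 ± 1.42 (7 genes) and the DNA methylation group at 31.7 ± 0.488 (7 genes). PRC2 had a median of 40.1 ± 3.02 (5 genes), the H3K36 methyltransferases with Ash1l 45.9 ± 3.55 (4 genes), the CHD group 46.3 ± 1.79 (6 genes) and BAF 59.6 ± 1.58 (8 genes). Members of a group lay far apart, with means from 12.9 to 126 TPM in PRC2 and from 2.01 to 91.9 in PRC1. Members on the syndrome list had a median of 32.8 TPM and a range of means from 10.6 to 211. The 24 members not on it had a median of 38.0 and a range from 2.01 to 303. The first range lies within the second.

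PRC2, the complex that methylates histone H3 at lysine 27, was represented by both alternative catalytic subunits and by core partners. Ezh2, the catalytic subunit typical of dividing cells and the gene of Weaver syndrome, was at 125 TPM in replicate 1 and 127 in replicate 2. Ezh1, the catalytic subunit more typical of resting cells, was at 13.6 and 12.2 TPM. Ezh2 was therefore 9.16-fold higher than Ezh1 in replicate 1 and 10.4-fold higher in replicate 2. Eed, which binds the methylated tail, was at 71.6 and 74.6 TPM, and Suz12, the scaffold, was at 22.0 and 19.7. Jarid2, a substoichiometric partner, was at 38.0 and 42.2 TPM. Of the 6 further PRC2 genes looked up, all were detected, led by the histone-binding Rbbp4 (382 and 408 TPM), Rbbp7 (316 and 314) and Mtf2 (106 and 111).

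PRC1 places ubiquitin on histone H2A through Rnf2 or Ring1, each paired with a PCGF protein such as Bmi1 or Pcgf2, and in its canonical form reads methylated H3 through a CBX protein. Rnf2 was at 88.6 and 95.3 TPM and Ring1 at 23.3 and 21.3, so Rnf2 was 3.80-fold and 4.48-fold higher. Bmi1 was at 25.3 and 26.8 TPM and Pcgf2 at 16.2 and 16.9. Among the CBX readers, Cbx2 was at 81.0 and 82.2 TPM, Cbx8 at 8.48 and 7.31, and Cbx7 at 1.48 and 2.54. Cbx2 was thus the leading reader among these members, 54.7-fold and 32.4-fold above Cbx7. Cbx7 rested on 100 and 182 counts, the fewest of any member. All 17 further PRC1 genes looked up were detected, led by Bap1 (81.4 and 79.0 TPM), Phc2 (83.6 and 64.4) and Kdm2b (61.2 and 66.0).

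The MLL proteins methylate histone H3 at lysine 4, and Kdm6a and Kdm6b remove methyl groups from lysine 27. Kmt2d, the gene most often mutated in Kabuki syndrome, was at 11.1 and 10.1 TPM, and Kdm6a, the other Kabuki gene, at 23.7 and 22.1. Kmt2c, the closest relative of Kmt2d, was at 15.7 and 14.9 TPM. Kmt2a, the gene of Wiedemann-Steiner syndrome, was at 19.2 and 18.3, Kmt2b at 9.93 and 9.08, and Kdm6b at 33.2 and 33.9. Each gene of this group except Kdm6b and Kdm6a lay below the median of detected genes in both libraries. The 11 further genes of these complexes were all detected, with a median of 52.3 TPM against 17.0 for the members of this group. The shared core subunits Dpy30 (187 and 182 TPM) and Ash2l (107 and 119) and the scaffold Men1 (87.5 and 83.9) were the highest.

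Nsd1, a methyltransferase for lysine 36 of histone H3 and the gene of Sotos syndrome, was at 66.3 and 63.9 TPM. Nsd2, which lies in the Wolf-Hirschhorn region in humans, was at 60.5 and 50.1, and Setd2, which adds the third methyl group along transcribed genes, at 36.3 and 36.8. Ash1l, a methyltransferase that counteracts Polycomb, was at 20.0 and 19.9 TPM. All 3 further genes looked up were detected, Setd5 at 57.9 and 60.7, Kdm2a at 51.4 and 48.2 and Nsd3 at 44.5 and 46.6 TPM.

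CHD proteins are chromodomain ATPases, and all 6 members had means between 35.96 and 104 TPM. Chd7, the gene of CHARGE syndrome, was at 37.3 and 36.7 TPM, and its relative Chd8 at 44.5 and 44.2. Chd3 and Chd4, the ATPases of the NuRD complex, were at 106 and 102 and at 70.7 and 81.3 TPM. Chd1, known from transcribed genes, and its relative Chd2 were at 36.2 and 35.7 and at 45.4 and 50.9 TPM. Another CHD gene, Chd5, known from neurons and testis, was at 0.26 and 0.36 TPM and was not detected. The other 9 CHD and NuRD genes looked up were detected, led by Mbd3 (274 and 259 TPM), Mta2 (166 and 158) and Chd9 (52.8 and 51.04).

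BAF complexes slide or eject nucleosomes, with Smarca4 or Smarca2 as the ATPase and other subunits as scaffold. The scaffold subunits Smarcb1, at 212 and 211 TPM, and Smarcc1, at 170 and 180, were the highest of the group. Smarca4 was at 102 and 98.2 TPM and Smarca2, the gene of Nicolaides-Baraitser syndrome, at 59.2 and 63.1. Arid1a was at 31.5 and 29.3 TPM, Arid1b, the most frequent Coffin-Siris gene, at 13.5 and 14.5, and Arid2, of the PBAF form, at 25.9 and 25.9. On whole-gene TPM the ARID subunits were thus all lower than the ATPases. On the TPM of transcripts with at least 90% of the longest coding sequence, Smarca2, at 17.4 and 15.3, was below Arid1a, at 25.4 and 24.6, and Arid2, at 20.7 and 19.5. Smarcd3, a subunit known from heart and muscle, was at 57.8 and 58.4 TPM. All 18 further BAF genes looked up were detected, led by Smarce1 (258 and 265 TPM), Dpf2 (163 and 150) and Actl6a (146 and 154). Actl6b, the subunit that replaces Actl6a in neurons, was at 7.30 and 4.76 TPM.

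Crebbp and Ep300 acetylate histones at enhancers and are the genes of Rubinstein-Taybi syndrome. Crebbp was at 32.6 and 33.0 TPM and Ep300 at 17.7 and 16.4, so Crebbp was 1.84-fold and 2.01-fold higher. Kat6a and Kat6b, the acetyltransferases of MOZ/MORF complexes, were at 20.4 and 20.1 and at 24.4 and 22.3 TPM. The 10 further genes with a row under their symbol were all detected, led by Meaf6 (61.9 and 67.9 TPM), Kat7 (61.1 and 64.2) and Kat2a (55.9 and 56.6).

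Among the member groups, that of the class I deacetylases Hdac1, Hdac2 and Hdac3 with Ankrd11 had the highest median. Hdac2 was at 297 and 309 TPM, Hdac1 at 197 and 192, and Hdac3 at 131 and 129. Each of these exceeded every member outside the group other than Smarcb1, Dnmt3a and Smarcc1. Ankrd11, the gene of KBG syndrome, whose protein binds deacetylase complexes, was at 80.02 and 57.1 TPM. The 14 further deacetylase and corepressor genes were all detected, with a median of 26.9 TPM against 162 for the members of this group. The high median thus holds for the listed members and not for the further genes. The highest of these were Ncor1 (156 and 146 TPM), Sin3b (143 and 139) and Kdm1a (60.4 and 62.5). Hdac8, of class I too but not a member, was at 9.91 and 8.62 TPM.

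Dnmt1 and Uhrf1 copy DNA methylation onto new strands after replication, Dnmt3a and Dnmt3b place it anew, and TET enzymes oxidize it. Dnmt1 was at 95.6 and 97.2 TPM and Uhrf1, which brings Dnmt1 to replicated DNA, at 123 and 125. Dnmt3a was at 172 and 179 TPM and Dnmt3b, the gene of ICF syndrome, at 11.9 and 11.8. The de novo enzymes were therefore 14.5-fold and 15.3-fold apart. Tet3 was at 31.4 and 32.1 TPM, Tet1 at 24.9 and 24.1, and Tet2 at 17.6 and 17.1, in the same order in both libraries. Of the 7 further genes, 5 were detected, led by the glycosylase Tdg (155 and 160 TPM), Uhrf2 (80.0 and 78.2) and Mbd1 (37.0 and 34.5). The germline cofactor Dnmt3l, at 0.32 and 0.15 TPM, and the male germline enzyme Dnmt3c, at 0.00 and 0.04, were not detected.

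Annotated starts of Dnmt3a differ in coding content and in base composition, which is why both are shown. Dnmt3a-201 begins at an upstream start and encodes 908 codons, and Dnmt3a-205 begins downstream and encodes 689, lacking the first 657 coding bases. The shorter protein is known as Dnmt3a2. The first 60 coding bases of each, on the plus strand of mm10, are given from the GENCODE M21 transcripts with the start codon in capitals, at chr12:3835198-3835200 for Dnmt3a-201 and at chr12:3895573-3895575 for Dnmt3a-205.
Dnmt3a-201: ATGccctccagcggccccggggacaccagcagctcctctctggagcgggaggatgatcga
Dnmt3a-205: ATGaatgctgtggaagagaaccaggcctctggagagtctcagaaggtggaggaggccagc
Dnmt3a-205 carried 52.0% of the gene's TPM in replicate 1 and 56.2% in replicate 2, and Dnmt3a-201 carried 22.8% and 22.1%. Adding Dnmt3a-203, which has the shorter coding sequence too, the form without the first 219 codons reached 97.02 and 107 TPM, against 39.2 and 39.7 for the form with them. Of the complete coding transcripts, 28.8% and 26.98% of the TPM thus held the longer form. The rest of the gene's TPM was in incomplete, decay and noncoding transcripts, which cannot be assigned to either form.

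The 250 bases before an annotated RefSeq start near each form, on the plus strand of GRCm38.p6, have the CpG pairs in capitals. They lie at chr12:3806730-3806979 for the upstream start and chr12:3891494-3891743 for the downstream start, where Dnmt3a-205 begins at base 3891728 in GENCODE.
Dnmt3a upstream: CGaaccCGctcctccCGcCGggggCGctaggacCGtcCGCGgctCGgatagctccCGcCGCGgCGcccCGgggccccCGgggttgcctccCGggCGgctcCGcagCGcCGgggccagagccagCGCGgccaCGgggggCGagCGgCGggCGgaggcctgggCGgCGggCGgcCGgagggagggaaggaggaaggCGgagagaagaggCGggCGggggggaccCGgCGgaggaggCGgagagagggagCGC
Dnmt3a downstream: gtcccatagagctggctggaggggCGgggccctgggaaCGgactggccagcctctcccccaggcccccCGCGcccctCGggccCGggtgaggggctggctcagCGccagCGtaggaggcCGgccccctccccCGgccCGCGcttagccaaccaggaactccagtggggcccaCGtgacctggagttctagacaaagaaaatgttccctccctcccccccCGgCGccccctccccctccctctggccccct
The upstream stretch holds 38 CpG pairs and the downstream stretch 15. Over the full windows of 300 bases, which run 50 bases past the start, the ratio of observed to expected CpG was 0.96 upstream and 0.47 downstream. Dnmt3a-205, which carried a larger share of the TPM than Dnmt3a-201, was therefore annotated from the CpG-poorer start. The start of Dnmt3a-203 was not compared, and shares between transcripts are estimates from short reads.

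Dnmt3b forms differ inside the protein. Relative to Dnmt3b-207, with 860 codons, the leading Dnmt3b-206, with 776, lacks 3 coding segments, of 60, 3 and 189 bases. The 60-base segment lies at chr2:153670849-153670908 and the 189-base segment within chr2:153683608-153684477, where an intron interrupts it. Both are on the plus strand of mm10 and are shown in capitals with flanking coding bases, because they decide which protein is made: forms without the 189-base segment lack part of the catalytic domain and are known as inactive.
Dnmt3b segment of 60 bases: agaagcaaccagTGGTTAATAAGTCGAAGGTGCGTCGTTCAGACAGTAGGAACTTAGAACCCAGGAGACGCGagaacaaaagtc
Dnmt3b segment of 189 bases: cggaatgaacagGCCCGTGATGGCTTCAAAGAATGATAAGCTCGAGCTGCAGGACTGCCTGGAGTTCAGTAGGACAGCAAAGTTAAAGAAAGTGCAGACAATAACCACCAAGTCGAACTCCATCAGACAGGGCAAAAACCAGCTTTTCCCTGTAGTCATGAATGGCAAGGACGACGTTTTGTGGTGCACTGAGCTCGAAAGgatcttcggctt
Complete coding transcripts with the 189-base segment summed to 2.16 TPM in replicate 1 and 3.68 in replicate 2, and those without it to 8.13 and 6.57. The form that keeps the segment thus held 20.99% and 35.9% of the complete coding TPM, less than the form that skips it in both libraries. Dnmt3b had 745 and 1055 counts in all, so the split between its transcripts rests on few reads.

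Other members had coding forms that differed by short stretches. Smarcb1-201, with 385 codons, carried 62.7% and 63.2% of Smarcb1, and Smarcb1-202, with 376, carried 35.7% and 35.3%. The 27-base segment that separates them lies at chr10:75916773-75916799 on the minus strand of mm10 and is shown in capitals because both forms were abundant.
Smarcb1 segment of 27 bases: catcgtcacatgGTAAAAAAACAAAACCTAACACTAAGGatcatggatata
In TPM, the form with the segment was at 133 and 133, and the form without it at 75.6 and 74.4. The share of the longer form, 63.7% and 64.2% of complete coding TPM, was nearly the same in both libraries. Dnmt1-201, with 1620 codons, carried 56.7% and 59.7% of Dnmt1, and Dnmt1-202, with 1501 codons and a later ATG, carried 25.9% and 24.9%. Tet3-203, with 1803 codons, carried 22.3% and 19.3% of Tet3, below Tet3-202, which lacks its first 135 codons and carried 37.5% and 34.6%. For Arid1b, the shorter Arid1b-203, with 1762 codons, carried 47.3% and 54.8%, against 33.2% and 28.2% for Arid1b-202, with 2244.

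Most of the TPM of many large members was assigned to transcripts that do not hold the whole coding sequence. For a measure of this, chosen after the values had been seen, protein-coding transcripts with at least 90% of the gene's longest annotated coding sequence were called long coding. Their share of the gene's TPM had a median of 58.9% over the 51 members and of 74.9% over detected protein-coding genes with at least 2 transcripts. It was under 50% in 21 members, or 41.2%, where 27.8% of those genes were. Members are long genes, with a median of 1620 codons against 483. Among genes of at least 1500 codons, the median long coding share was 37.9% in 28 members and 46.8% in the other 698. Among genes under 500 codons it was 81.2% in 12 members and 86.5% in the other 7277. Long genes had lower shares in both lists, and shares between transcripts are estimates from short reads.

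**Figure D2:**
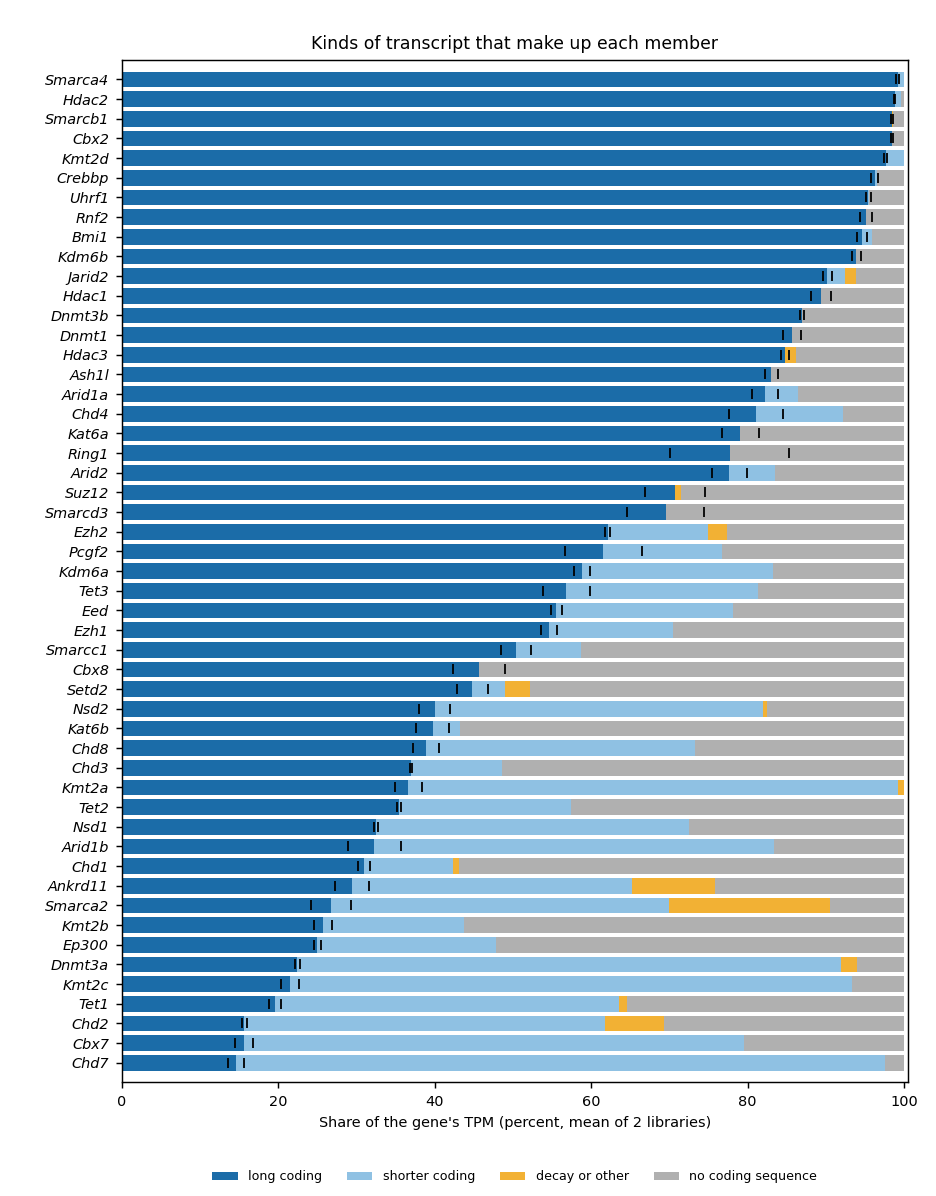
Stacked bars give the share of each member's TPM in long coding, shorter coding, decay or other, and noncoding transcripts (percent, mean of 2 libraries), and black ticks give the long coding share of each library. Members run from Smarca4 at the top, above 99.0%, to Chd7 at the bottom, at 13.6% and 15.6%.

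Chd7, at chr4:8690406-8867659 on the plus strand of mm10, had the lowest mean share, with 13.6% in replicate 1 and 15.6% in replicate 2. In replicate 2 alone, Cbx7 at 14.5% and Chd2 at 15.4% were lower. The leading transcript of Chd7, Chd7-203, has an incomplete 3′ end in the annotation and 631 codons, and carried 54.9% and 52.6%, while the full coding sequence has 2986. In TPM, the long coding form of this CHARGE gene was at 5.09 and 5.72 of the 37.3 and 36.7 of the whole gene. Kmt2c and Kmt2d, close relatives, lay far apart: 20.4% and 22.7% for Kmt2c against 97.8% and 97.5% for Kmt2d. Ep300 and Crebbp did too, with 24.6% and 25.4% against 96.7% and 95.8%. Smarca4 reached 99.4% and 99.0%, and Smarca2, which has 46 annotated transcripts, 29.3% and 24.3%. Hdac2, Smarcb1 and Cbx2 were also above 98% in both libraries. For Cbx7 the longest annotated form, of 251 codons, was not the main one: Cbx7-203, with 158 codons, carried 58.2% and 40.6%. Like Chd7-203, other leading transcripts are incomplete in the annotation. Kmt2c-208, which carried 43.8% and 39.1% of Kmt2c, lacks a complete start. By mean share, Kmt2a and Chd2 were led by Kmt2a-203 and Chd2-201, which lack complete ends. Whether such entries stand for shorter RNAs was not tested.

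The leading transcript was the same in both libraries for 44 of 51 members, or 86.3%, against 90.5% of detected protein-coding genes with at least 2 transcripts. By the mean share of both libraries it was long coding in 37 members (72.5%), shorter coding in 7, without coding sequence in 6 and a decay transcript in 1. Of the 12094 detected protein-coding genes with at least 2 transcripts, 9572 (79.1%) were led by a long coding transcript. A shorter coding transcript led 1265 of these genes, one without coding sequence 958, and a decay or other transcript 299. Of the 6 members led by a transcript without coding sequence on the mean, Chd1, Ep300, Kmt2b and Tet1 were so in both libraries. Chd3-203 led only in replicate 1 (33.1% and 30.2%, against 30.7% and 30.5% for the coding Chd3-202). Smarcc1-208 led only in replicate 2 (30.5% and 35.9%, against 30.7% and 30.2% for the coding Smarcc1-201). Cbx8 was led by the noncoding Cbx8-202 in replicate 1 only, at 50.5% and 39.5%, against 42.4% and 49.1% for the coding Cbx8-201. Chd1-203, of 1372 bases, carried 57.7% and 56.2% of Chd1, while the full-length Chd1-201 carried 30.2% and 31.7%. Kmt2b-207, a retained-intron transcript of 571 bases, carried 51.6% and 44.9% of Kmt2b. The decay transcript was Smarca2-202, with 15.3% and 15.7%. The largest exchange between libraries was in Ezh1, where Ezh1-203 carried 53.5% in replicate 1 and 12.8% in replicate 2, and Ezh1-202 0.00% and 42.8%. These Ezh1 transcripts differ by 9 bases at the start of the coding sequence, and long coding Ezh1 as a whole was at 7.29 and 6.80 TPM.

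The order of related members was compared within each library, where both genes share depth and scaling. All 22 pairs looked at had the same order in replicate 1 and replicate 2. On whole-gene TPM, the widest gaps were Cbx2 over Cbx7, Dnmt3a over Dnmt3b, Cbx2 over Cbx8, at 9.55-fold and 11.3-fold, and Ezh2 over Ezh1. Among the closest were Kat6b over Kat6a, at 1.20-fold and 1.11-fold, Nsd1 over Nsd2, at 1.10-fold and 1.28-fold, and Chd8 over Chd7, at 1.19-fold and 1.21-fold. When only long coding transcripts were summed, a comparison added after the values had been seen, 16 pairs kept their order in both libraries and 6 turned in both. The 6 were Kmt2c with Kmt2d, Nsd1 with Nsd2, Chd1 with Chd2, Chd3 with Chd4, Kat6a with Kat6b, and Tet1 with Tet2.

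Kmt2d passed Kmt2c by the widest margin, although the leading transcript of Kmt2c is incomplete in the annotation. That of Chd2, in another pair that turned, is incomplete too. On whole genes Kmt2c was 1.41-fold and 1.48-fold higher than Kmt2d, whereas on long coding transcripts Kmt2d was at 10.9 and 9.80 TPM and Kmt2c at 3.20 and 3.39, a 3.41-fold and 2.89-fold lead of Kmt2d. Chd4 was 1.52-fold and 1.67-fold above Chd3 on long coding transcripts, and below it on whole genes. Gaps that widened included Crebbp over Ep300, at 7.25-fold and 7.57-fold, and Smarca4 over Smarca2, at 5.85-fold and 6.36-fold. Dnmt3a over Dnmt3b narrowed to 3.81-fold and 3.87-fold, with the 908-codon form of Dnmt3a as its only long coding form. This rests on the 90% limit, which the 689-codon Dnmt3a-205 missed and the 776-codon Dnmt3b-206 passed. With a limit of 70%, the Dnmt3a share was 79.0% and 82.0%. Of the long coding Dnmt3b, 10.29 and 10.25 TPM, forms without the 189-base segment made up 8.13 and 6.57. Nsd1 and Nsd2 were nearly level, with long coding sums of 21.7 and 20.6 against 23.0 and 21.04 TPM. Ezh2 over Ezh1, Rnf2 over Ring1 and Hdac2 over Hdac1 kept their order with somewhat wider gaps. These were 10.6-fold and 11.6-fold, 5.11-fold and 5.03-fold, and 1.69-fold and 1.75-fold.

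**Figure D3:**
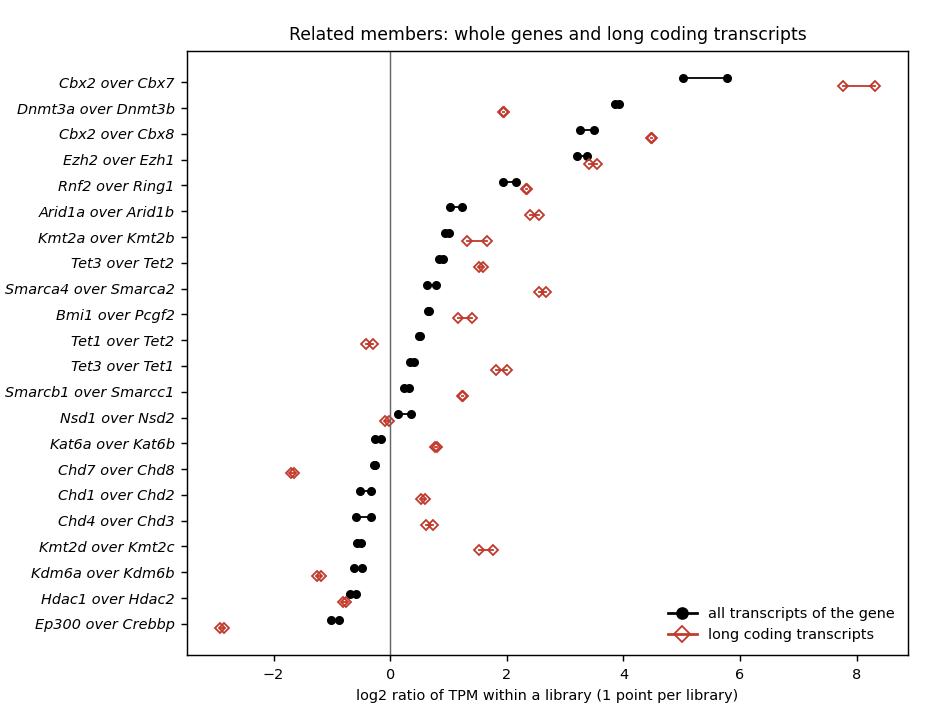
Each row is a pair of related members, and the x axis is the log2 ratio of their TPM within a library, with 1 point per library. Black circles use all transcripts of the genes and open red diamonds only long coding transcripts. For 6 pairs, Kmt2d over Kmt2c among them, the circles and diamonds lie on opposite sides of 0.

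The same libraries had also been quantified by the authors with the older annotation release M4, which lists a median of 6 transcripts per member against 8 in M21. These are the same reads and not replicates. A change of at least 0.5 in log2(TPM + 1) between releases was seen in 7 members, all lower under M4, and in 4.41% of 21474 protein-coding genes matched by ID, either way. Among detected genes 5.72% were lower by that much. Nsd1, at chr13:55209782-55318325 on the plus strand of mm10, changed most, from 66.3 and 63.9 TPM under M21 to 25.2 and 23.9 under M4. Tet2 went from 17.6 and 17.1 to 7.34 and 7.08, Chd2 from 45.4 and 50.9 to 21.2 and 23.0, and Setd2 from 36.3 and 36.8 to 18.6 and 20.2. The other 3 were Ankrd11 (50.2 and 37.7 TPM under M4), Chd8 (29.9 and 28.1) and Smarcc1 (114 and 121). In each of the 7 members the expected counts fell by a smaller fraction than the TPM. For Nsd1 they went from 6109 and 8184 under M21 to 5592 and 7514 under M4. For Chd2 they went from 1972 and 3066 to 1601 and 2540. Why TPM changed more than counts was not tested. Under M4, Nsd2 was 2.11-fold and 2.05-fold above Nsd1, Chd1 above Chd2, and Chd7 above Chd8, each the reverse of M21. The Nsd1 value under M4 lay near its long coding sum under M21, which was 21.7 and 20.6 TPM. Over all members the median difference between releases was 0.06, the same as over detected protein-coding genes.

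**Figure D4:**
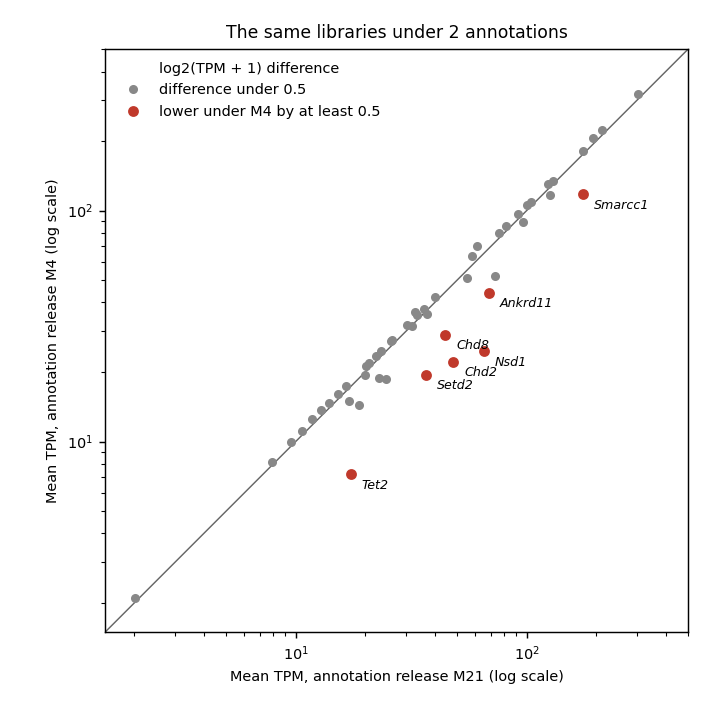
Mean TPM of each member under annotation release M21 (x axis) and release M4 (y axis), both on log scales, with the line of equality. Red points are the 7 members lower under M4 by at least 0.5 in log2(TPM + 1), of which Nsd1 differed most; no member was higher by as much.

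On log2(TPM + 1), replicate 2 over replicate 1, 48 of 51 members, or 94.1%, differed by less than 0.2, as did 82.6% of detected protein-coding genes. In replicate 2, 22 members, or 43.1%, were higher and 29 lower, where 50.2% of detected protein-coding genes were higher. The median difference was -0.01, and for detected protein-coding genes it was 0.0008. Cbx7 alone reached 0.5, at 0.51, where 2.09% of detected protein-coding genes differed by as much in either direction. Its count ratio, scaled by the summed counts of genes, was 1.27 with a 95% interval from 0.993 to 1.64, which holds 1. Its TPM difference was under 0.5 with a pseudocount of 5. On TMM-scaled counts, which have no length correction, the Cbx7 difference was under 0.5 too. The effective length of Cbx7 was 3673 bases in replicate 1 and 2738 in replicate 2. The SD of TPM was 2.89% of the mean in the median member and 4.50% in the median detected protein-coding gene.

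Intervals of the count ratio excluded 1 on the higher side in 11 members, where 14.6% of detected protein-coding genes did. On the lower side they did in 10, where 15.4% of genes did. With spike-in scaling, which shifts all genes, the split of members was 0 higher and 40 lower, and of detected protein-coding genes 2.82% were higher and 53.3% lower. These intervals cover counting error only, between 1 library and 1 library, and treat reads as independent. Amplified reads are not independent molecules, so the intervals can be too narrow. The member furthest from 1 was Ankrd11, at chr8:122883822-123042277 on the minus strand of mm10, with 6361 and 7115 counts, a ratio of 0.783 and an interval from 0.757 to 0.810. In TPM it was at 80.02 and 57.1, a difference of -0.48 on the log2(TPM + 1) scale, with an effective length of 4312 and 4763 bases. Its full-length Ankrd11-202 was at 21.6 and 17.9 TPM, the short Ankrd11-207 at 17.8 and 11.3, and the retained-intron Ankrd11-204 at 17.5 and 9.69. Nsd2 followed, with a ratio of 0.881 (0.847 to 0.916), and Kmt2d with 0.893 (0.857 to 0.932). On the higher side, Jarid2 was at 1.09 (1.05 to 1.14) and Chd2 at 1.09 (1.03 to 1.15). Counts and TPM can disagree in direction: Tet3 had a count ratio of 0.954 (0.913 to 0.997) and a TPM of 31.4 and 32.1, with effective lengths of 5894 and 5539 bases. Lens and eye, neuron, skeletal muscle, red cell and mesenchyme markers also differed between the libraries. Their part in the differences of the members was not tested.

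**Figure D5:**
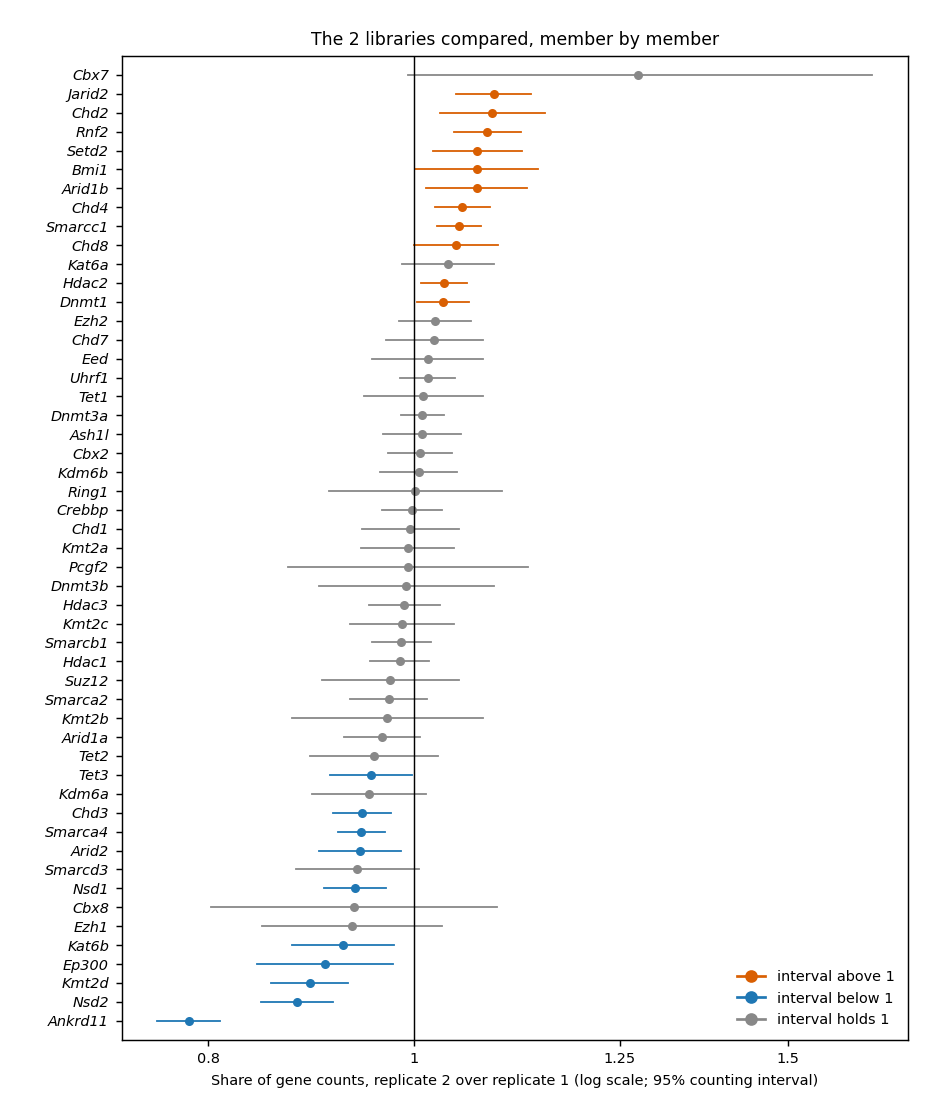
Ratio of each member's share of gene counts in replicate 2 to that in replicate 1 (log scale), with 95% counting intervals. Orange intervals lie above 1, blue ones below 1 and grey ones hold 1. Ankrd11 stands lowest at 0.783 and Cbx7 highest at 1.27 with the widest interval.

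Promoters of the members were rich in CpG pairs. RefSeq windows of 300 bases around annotated starts, on GRCm38.p6, were found for 37 of 51 members, 46 windows in all. Their median number of CpG pairs was 30, against 20 for the windows of detected protein-coding genes and 7 for all 32851 windows. With a GC content of at least 50% and a ratio of observed to expected CpG of at least 0.6, 40 of 46 member windows, or 87.0%, met a common description of a CpG island, against 64.8% for detected protein-coding genes. The 250 bases before the start are shown for the highest member, Hdac2, at chr10:36974294-36974543 on the plus strand, and for the lowest, Cbx7, at chr15:79932647-79932896 on the minus strand, with CpG pairs in capitals.
Hdac2: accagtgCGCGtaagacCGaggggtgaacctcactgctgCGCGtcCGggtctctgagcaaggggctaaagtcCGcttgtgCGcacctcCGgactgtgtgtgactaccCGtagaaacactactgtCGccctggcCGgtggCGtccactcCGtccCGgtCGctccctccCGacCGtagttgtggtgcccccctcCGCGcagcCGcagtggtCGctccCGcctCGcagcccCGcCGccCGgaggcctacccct
Cbx7: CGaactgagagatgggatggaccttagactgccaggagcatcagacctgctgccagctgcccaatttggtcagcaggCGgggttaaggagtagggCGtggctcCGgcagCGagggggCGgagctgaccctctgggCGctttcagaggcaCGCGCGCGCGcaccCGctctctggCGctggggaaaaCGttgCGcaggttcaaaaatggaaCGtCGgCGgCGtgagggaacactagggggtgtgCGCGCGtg
The Hdac2 stretch holds 27 CpG pairs and the Cbx7 stretch 23, although the genes stood at 303 and 2.01 TPM on average. The E2F motif was searched for as TTTCGCGC or TTTGGCGC on both strands, forms that do not overlap each other. It was present in 3 of 46 member windows, or 6.52%, and in 1.42% of the windows of detected protein-coding genes. The 3 were Dnmt1, Ezh2 and Uhrf1, a description of letters in these windows and not of binding.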

How the data were processed

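PolyA plus RNA-seq of 2 libraries from 1 tissue, made from separate embryo pools per the labels, was used as deposited. The aligner, quantifier and strand setting were not given in the sources used here. The authors' gene tables hold, per the file headers, expected counts (estimated reads per gene, not always whole), TPM (maximum-likelihood and posterior mean) and FPKM, and the deposited transcript tables the percent of a gene's TPM in each transcript. They were made on mm10 with GENCODE M21 and M4, per the deposited descriptions. Rows naming no gene, 2.85% and 3.10% of counts, stayed out of library sizes.

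Levels are TPM of M21, as mean and SD. Replicates were compared by log2(TPM + 1), and by exact conditional (Clopper-Pearson) 95% intervals of rounded expected counts scaled by summed gene counts. The intervals were tested on simulated independent Poisson counts only, which does not show their coverage for amplified reads. A difference of 0.5 was the threshold. Fractional expected counts in 16 members show that reads shared with other features had been divided, so those values are less certain, as are overlapping antisense genes. Coding lengths and segments came from GENCODE M21, and promoter windows from RefSeq GRCm38.p6. Alternatives were M4, posterior mean TPM, FPKM, other pseudocounts and filters, edgeR 4.0.16 TMM scaling (R 4.3.3), spike-in scaling, transcript-level sums and 1 library alone. Tables were made with Python 3.11.15, pandas 2.3.3 and SciPy 1.17.1.

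Any of the 51 members could be named. Of the other lists, the 3 highest genes and those under a TPM of 1 in both libraries were named. Actl6b and Hdac8 were chosen after their values were seen. Of 98 such companion symbols, Ezhip and Brpf2 had no row. Brpf2 is another name of Brd1, which was listed too. The members and lists were chosen with earlier results of these data known.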

Additional observations from a re-analysis of the deposited data

How the results depend on the processing

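Every alternative for the number of detected members gave 50 or 51. The median level of 35.96 TPM was 31.6 under M4, 35.3 with posterior mean TPM and 23.0 in FPKM, a different unit, and 35.7 to 36.2 with 1 library. All 22 pairs kept their order with posterior mean TPM and with either library alone, 19 under M4, 18 with the leading transcript alone and 16 with long coding transcripts. As log2 of the first-named over the second, pairs that turned were, under M4, Nsd1/Nsd2 (-1.06), Chd1/Chd2 (0.76) and Chd7/Chd8 (0.30). With the leading transcript alone they were Kmt2d/Kmt2c (0.37), Chd1/Chd2 (1.01), Chd7/Chd8 (0.85) and Kat6a/Kat6b (1.10). With long coding transcripts they were Kmt2d/Kmt2c (1.65), Nsd1/Nsd2 (-0.056), Chd1/Chd2 (0.56), Chd4/Chd3 (0.67), Kat6a/Kat6b (0.78) and Tet1/Tet2 (-0.35). The cause was not tested. Cbx7, the 1 member apart between libraries, was no longer so with a pseudocount of 5 or on TMM-scaled counts, each giving 0 members. Those counts, unlike TPM, have no length correction. Spike-in scaling shifted detected genes by a median of -0.13 (log2) and left 40 members with an interval off 1, all lower in replicate 2, instead of 21. Members apart between releases numbered 7 to 8 with 1 library. The median leading share was 53.8%, 64.0% under M4, and 50.5% to 54.1% with 1 library. The median long coding share was 58.9%, 69.5% when 70% of the coding sequence was enough, 77.9% under M4, and 56.7% to 59.8% with 1 library. Whether the leading transcript was the same in both libraries could not be asked of 1 library. The alternatives on long coding and leading shares were chosen after seeing the data. No paired analysis was possible because there was 1 group. Counts were fewest for Cbx7 (100 and 182) and Cbx8 (290 and 388).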
